A study of Mus musculus with 6 samples.

Results

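Steroid hormone synthesis was followed through 10 mouse genes: Cyp19a1, Cyp11a1, Cyp17a1, Star, Hsd17b1, Hsd3b1, Srd5a1, Scarb1, Fdx1 and Por. They were chosen by name for their known roles, with no value from the files in the rule. Earlier results of these data were known when they were chosen. They are 10 of 26216 genes with a curated RefSeq transcript. Each gene was looked up by its symbol in the 8 deposited gene lists. The samples were cultured granulosa cells (GCs), the somatic cells that surround the oocyte, taken from wild type C57BL/6J mice aged 8 to 9 weeks. Per the labels, 3 samples had no agent (control) and 3 received 25 nM dihydrotestosterone (DHT), an androgen that aromatase does not turn into estrogen, for 24 h. Per the labels the cells of 30 mice were pooled and spread over the dishes of both groups (the methods of the study give another number of mice), so the samples were dishes of pooled cells and not single animals. Trimethylation of lysine 27 of histone H3 (H3K27me3) was mapped by chromatin immunoprecipitation followed by sequencing (ChIP-seq). The deposited peaks, gene body lists and promoter lists hold 1 pool per group. The lists of up- and downregulated genes also rest on RNA sequencing of separate GC samples. No list gives a value per sample and sequencing depth is unknown, so a difference between control and DHT could not be set against the spread between samples.

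Steroid hormones are made from cholesterol. Scarb1 encodes the receptor that takes up cholesterol from high-density lipoprotein, Star moves cholesterol to the inner mitochondrial membrane, and there Cyp11a1 cuts off the side chain to give pregnenolone, with electrons passed on by ferredoxin (Fdx1). Hsd3b1 turns pregnenolone into progesterone. Cyp17a1, which draws electrons from the P450 reductase Por, leads on to androgens and is in the ovary mainly an enzyme of theca cells, whereas GCs use aromatase (Cyp19a1, also served by Por) and Hsd17b1 to turn androgens into estradiol. Srd5a1 is the 5-alpha-reductase that makes DHT from testosterone. H3K27me3 is laid down by the Polycomb repressive complex and is known as a mark of silent genes.

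A gene stood in a gene body list when an H3K27me3 peak overlapped its body in that group. The control list held 2 of the 10 members, Cyp19a1 and Fdx1, against 11.9% of all genes. The DHT list held 1 member, Fdx1, against 4.36% of all genes. Cyp19a1 was thus among the genes with a control call alone, a class of 9.35% of all genes, and Fdx1 among those with a call in both groups, a class of 2.59%. None of the 10 was among the genes with a DHT call alone, which were 1.76% of all genes. The other 8 members (Cyp11a1, Cyp17a1, Star, Hsd17b1, Hsd3b1, Srd5a1, Scarb1 and Por) had no gene body call in either group, while 13.7% of all genes had at least 1. Both counts of members lay within 1 gene of what these shares give for 10 genes.

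In the remaining lists no member appeared. A promoter list held genes with a peak within 1 kb of the transcription start, and 0 of the 10 members stood in the control promoter list (0.603% of all genes) or in the DHT promoter list (0.206%). Cyp19a1 and Fdx1 thus had a call in the gene body and none at the promoter. Genes with a gene body peak and higher or lower expression under DHT made up 0.0839% and 0.0572% of all genes. The deposited list of those with lower expression held 15 genes, more than the paper counts. The paper's enhancer lists rest on a negative correlation, across samples, between a gene's expression and the H3K27me3 level at a linked enhancer. Up- and downregulated genes with such a link, with or without a gene body peak, made up 0.233% and 0.126%. At such shares a set of 10 genes would mostly have no member in a list. Cyp19a1, with its gene body call in control alone, was not among the upregulated genes of either kind.

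**Figure D1:**
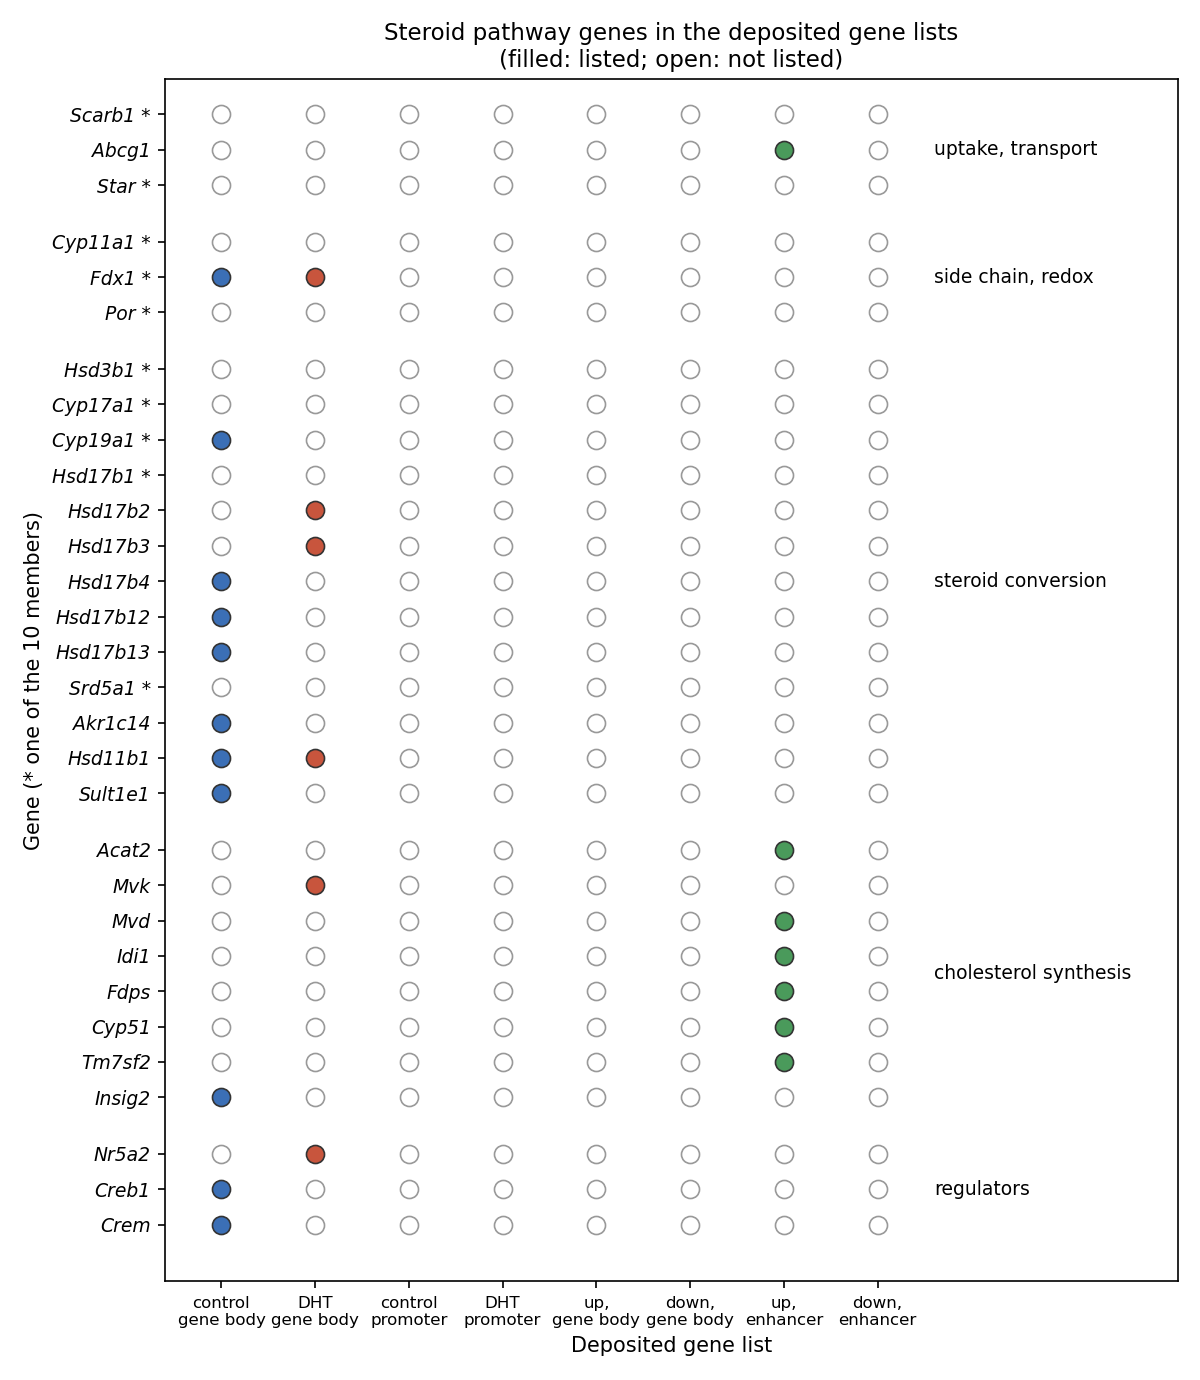
Membership of the 10 members (marked with an asterisk) and of every other steroid pathway gene described here that was in at least 1 deposited list. Rows are genes grouped by role and columns are the 8 lists; a filled circle is a listed gene (blue control, red DHT, green lists joined to expression) and an open circle an unlisted one. Cyp19a1 is filled in the control gene body column and Fdx1 in both gene body columns, while the other 8 members are open throughout.

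Aromatase, the enzyme that gives GCs their estrogen output, had a gene body call in control and none after DHT. The same step was common: 2452 of the 3132 matched genes in the control list, or 78.3%, were not in the DHT list, and 2355 other genes had the same calls as Cyp19a1 across all 8 lists. For protein-coding genes over 100 kb, the class of the whole Cyp19a1 gene, the share was 66.2%. From 10 to 30 kb, the class of its shortest transcript, it was 92.5%. The paper reports a lower H3K27me3 signal along the gene body of Cyp19a1 after DHT, from read counts not used here. It also reports, by PCR at Cyp19a1, a decrease of the mark under DHT. From the lists, whether the mark at Cyp19a1 itself differed between the groups was not tested. A call that falls just short of the threshold in one pool is listed in the same way as no signal at all. The number of calls also depended on that threshold. On chromosome 9, which carries Cyp19a1, Cyp11a1 and Fdx1, 710 peaks were called in control and 202 after DHT at the authors' q-value limit of 0.05, a ratio of 28.5%. Under a limit of 0.01 there were 271 and 141 peaks, a ratio of 52.0%, and under a limit of 0.001 there were 68 and 56, a ratio of 82.35%. Strong peaks on the chromosome of Cyp19a1 were therefore closer in number between the pools than weak ones.

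Gene length went with the gene body calls. The control list held 13.6% of protein-coding genes, and 4.96% had a DHT call. By length in GRCm38, the control share was 0.978% for genes under 10 kb, 5.12% from 10 to 30 kb, 19.5% from 30 to 100 kb and 61.7% over 100 kb. The DHT share over the same classes was 0.258%, 1.56%, 5.36% and 27.4%. A long gene offers more room for a peak, and the part that length played in the calls of single members was not tested. The members were short or of middle length: 3 were under 10 kb (Hsd17b1 at 3.22 kb, Cyp17a1 at 5.84 kb and Star at 7.51 kb), 3 from 10 to 30 kb (Hsd3b1 at 17.4 kb, Fdx1 at 20.6 kb and Cyp11a1 at 29.0 kb) and 3 from 30 to 100 kb (Srd5a1 at 38.0 kb, Scarb1 at 64.0 kb and Por at 65.3 kb). Only Cyp19a1, at 102 kb, was over 100 kb, and it was longer than 88.9% of protein-coding genes. No call was the common state in all classes up to 100 kb, and so for the 8 members without one.

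**Figure D2:**
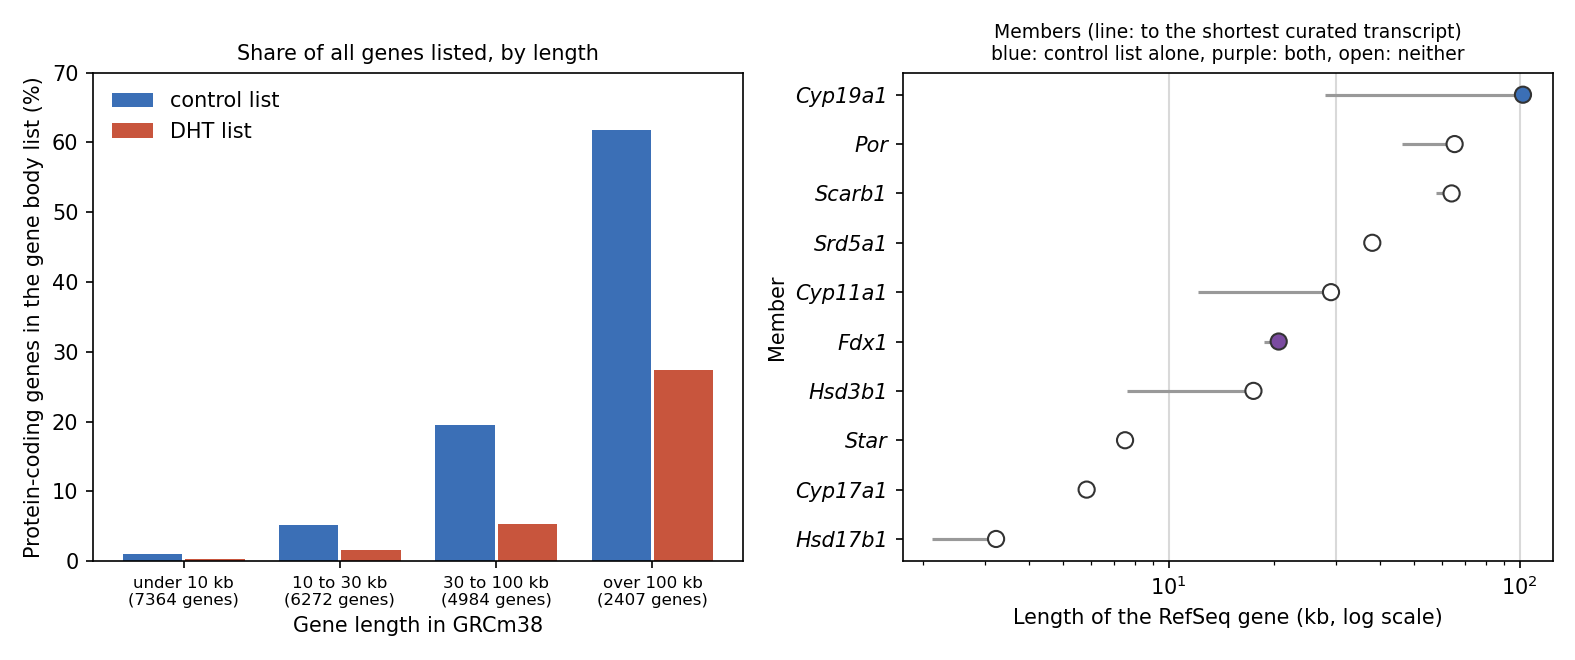
Left, the percent of protein-coding genes in the control (blue) and DHT (red) gene body list for 4 classes of gene length; right, the length of each member on a log scale (point, whole RefSeq gene; line, down to the shortest curated transcript; grey verticals, class limits). The listed share rises from 0.978% to 61.7% in control, and Cyp19a1 is the longest member while Fdx1, in both lists, lies at 20.6 kb.

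Fdx1, the mitochondrial electron donor of the side chain cleavage step, was short for a gene with calls in both groups. At 20.6 kb it was longer than 54.0% of protein-coding genes. Of the 632 protein-coding genes in both lists, 18 were shorter than Fdx1, or 2.85%, and their median length was 236 kb. In its class of 10 to 30 kb, 24 of 6272 genes were in both lists, a share of 0.383%. In that class 92.5% of the control genes were missing from the DHT list and 75.5% of the DHT genes were missing from the control list, so a call in both groups was the less frequent outcome for a gene of this size. Across all 8 lists 654 other genes had the same calls as Fdx1. The lists do not say whether the control and the DHT peak in Fdx1 were the same peak. On chromosome 9 as a whole, 36 of the 202 DHT peaks, or 17.8%, overlapped a control peak by at least 1 bp.

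For Cyp19a1 the length depends on which transcript is counted. RefSeq holds 4 curated transcripts of this gene in GRCm38, which share their last exons and begin at 4 separate starts, and their spans are 102, 63.0, 36.3 and 27.8 kb. Alternative first exons of aromatase are known to be used in different tissues, and the ovary is known to use the start next to the coding exons. With the shortest transcript Cyp19a1 would fall in the class of 10 to 30 kb, in which 5.12% of genes had a control call and 1.56% a DHT call, in place of 61.7% and 27.4%. The gene models behind the deposited lists are not given in the sources used here. The same limit held for Hsd3b1, whose curated transcripts span 7.6 kb in place of 17.4 kb and would put it under 10 kb, and in part for Por (46.2 kb in place of 65.3 kb, in the same class) and Cyp11a1 (12.1 kb for the shorter transcript, in the same class).

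The study designed a primer pair for H3K27me3 at Cyp19a1, shown here because it places the region that was followed by PCR. Its methods say that such primers were set at sites in the gene body that the ChIP-seq data had shown. A search of the whole GRCm38.p6 genome found each primer once, with no mismatch, on chromosome 9. They are printed from 5′ to 3′ in lower case with nothing marked.
Cyp19a1 forward primer, chr9:54267593-54267612, - strand: ctcctcttggaggtgtgagg
Cyp19a1 reverse primer, chr9:54267512-54267531, + strand: cttggaacagcagtgggaat
The pair spans 101 bp. Counted from the most upstream start as base 1, it covered bases 553 to 653 and lay in intron 1 of the longest transcript. It was upstream of the starts of the other 3 transcripts, by 38.6 kb, 65.3 kb and 73.8 kb. The pair therefore sat inside the gene body of the 102 kb model of Cyp19a1 and outside that of the other 3 models, so the 102 kb model is the one that fits a primer site in the gene body. Bases 553 to 653 also lie within 1 kb of that start, yet Cyp19a1 was in neither promoter list. If the promoter lists used that start, no called peak of either group reached the primer site. The lists do not say where in Cyp19a1 the control peak lay.

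**Figure D3:**
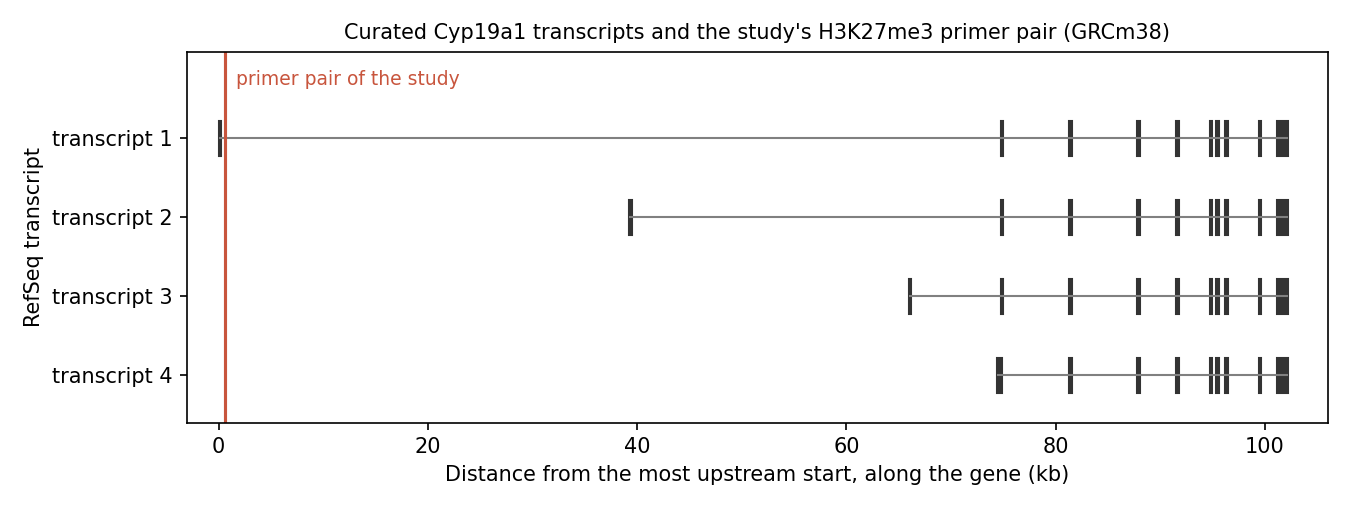
The 4 curated RefSeq transcripts of Cyp19a1 in GRCm38 (boxes, exons; lines, introns) against the distance in kb from the most upstream start, along the gene, with the primer pair as a red line. The primer pair lies next to the first start and 73.8 kb before the start of the shortest transcript.

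Promoter sequence was compared because Polycomb marks are known to gather at CpG-rich promoters, whereas no member had a promoter call. RefSeq promoter windows of 300 bases (250 before to 50 after a start) were at hand for 6 members. These were Cyp19a1 (3 windows), Cyp11a1 (2), Fdx1, Hsd3b1, Por and Srd5a1 (1 each). The start of the 36.3 kb transcript of Cyp19a1 had no window, and none was used for Cyp17a1, Star, Hsd17b1 and Scarb1. The windows printed here are those at the first and the last start of Cyp19a1, that of the other member with a call (Fdx1), and that of the member with the most CpG dinucleotides (Por). Each runs from 5′ to 3′ along the gene with every CpG in capitals, in GRCm38.p6, whose positions cannot be compared with the mm9 positions of the peaks.
Cyp19a1 most upstream start, chr9:54268115-54268414, - strand: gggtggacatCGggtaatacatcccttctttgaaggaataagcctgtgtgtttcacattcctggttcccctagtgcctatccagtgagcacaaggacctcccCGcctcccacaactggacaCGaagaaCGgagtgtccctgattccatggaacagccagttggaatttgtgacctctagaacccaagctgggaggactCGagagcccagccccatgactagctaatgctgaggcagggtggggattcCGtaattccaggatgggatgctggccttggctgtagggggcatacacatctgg
Cyp19a1 start of the shortest transcript, chr9:54193694-54193993, - strand: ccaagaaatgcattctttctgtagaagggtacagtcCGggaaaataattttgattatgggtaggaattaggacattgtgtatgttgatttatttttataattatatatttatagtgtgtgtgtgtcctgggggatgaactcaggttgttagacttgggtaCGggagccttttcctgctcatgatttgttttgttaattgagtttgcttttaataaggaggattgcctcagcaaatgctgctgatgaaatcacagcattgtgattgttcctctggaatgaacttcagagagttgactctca
Fdx1, chr9:51963553-51963852, - strand: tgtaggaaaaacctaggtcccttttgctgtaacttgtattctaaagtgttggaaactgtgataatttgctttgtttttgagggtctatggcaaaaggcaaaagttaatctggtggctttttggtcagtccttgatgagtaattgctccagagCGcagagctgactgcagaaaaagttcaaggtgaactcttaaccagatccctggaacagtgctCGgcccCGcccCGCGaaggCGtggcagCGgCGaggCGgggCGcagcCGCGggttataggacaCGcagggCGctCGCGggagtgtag
Por, chr5:135688895-135689194, + strand: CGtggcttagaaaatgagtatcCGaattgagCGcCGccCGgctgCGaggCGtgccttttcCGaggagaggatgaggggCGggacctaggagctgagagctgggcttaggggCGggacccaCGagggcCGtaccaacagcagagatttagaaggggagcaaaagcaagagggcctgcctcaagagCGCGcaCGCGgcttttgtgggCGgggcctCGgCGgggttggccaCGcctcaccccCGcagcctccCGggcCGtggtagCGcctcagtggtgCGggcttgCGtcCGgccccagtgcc

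The windows of the members ranged from 1 to 27 CpG. The window at the most upstream start of Cyp19a1 held 6 CpG and that at its shortest transcript 2, with 6 in its other window at hand. Cyp11a1 had 7 and 1, and Hsd3b1 had 2. All of these were at or below the median of 7 over 32841 windows (quartiles 3 and 20). Fdx1 held 16, Srd5a1 24 and Por 27, all above the median. Windows of genes in the control gene body list had a median of 15, and those of genes in the control promoter list a median of 7. Whether CpG content bore on the calls of the members was not tested.

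**Figure D4:**
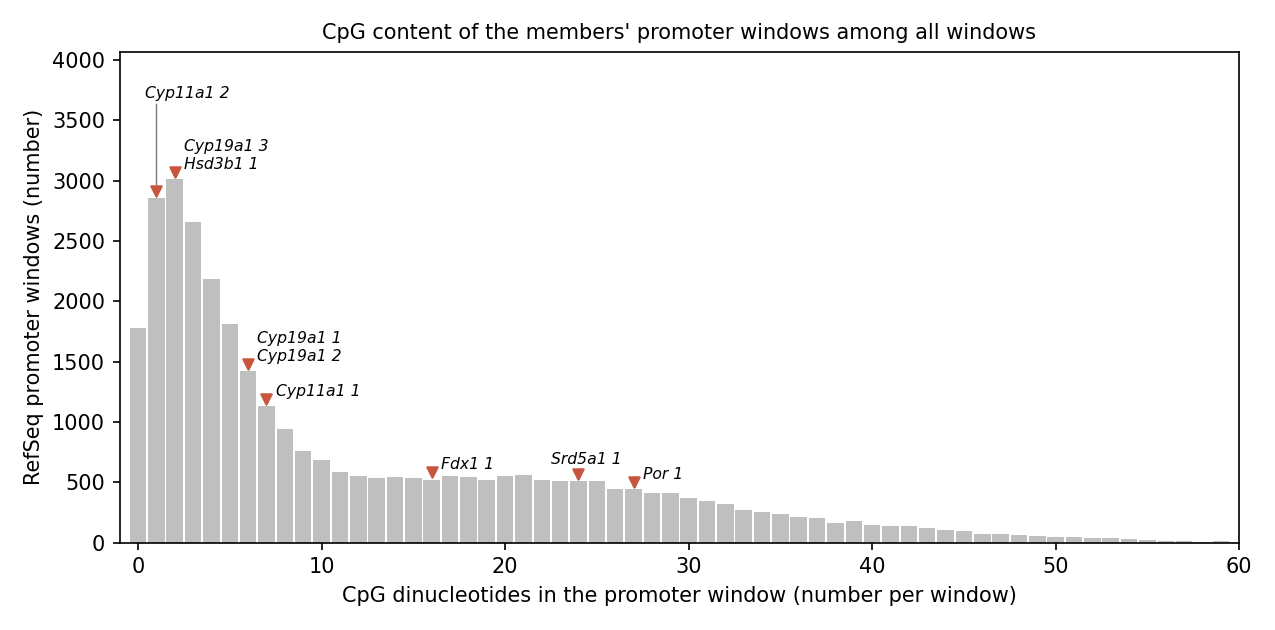
Number of RefSeq promoter windows (grey bars) by the number of CpG dinucleotides in the window, with the 9 windows of 6 members marked by red triangles and named with their window number; bins above 60 CpG are not drawn. Cyp19a1, Cyp11a1 and Hsd3b1 lie at 7 or fewer, and Fdx1, Srd5a1 and Por at 16, 24 and 27.

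The same 9 windows were searched on both strands for 4 short motifs of factors that are known to act on steroidogenic genes. SF-1, the nuclear receptor for which these genes are classical targets, was searched as AAGGTCA, and 0 of the 9 windows held it, against 4.72% of all windows. The cAMP response element TGACGTCA was in 0 of 9 (1.79% of all windows), and AGAACA, 6 letters known to be bound by the androgen receptor, in 0 of 9 (19%). The GATA motif AGATAA was in 1 window, that of Hsd3b1, on the reverse strand, against 11.2% of all windows. These counts say only which letters stand in these windows.

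The neighbours of the members on the chromosome were read next, because broad Polycomb domains are known to span several genes. The 5 nearest protein-coding genes on each side of the 10 members made 100 genes, of which 13 (13%) had a control call, 9 (9%) a DHT call and 4 both. Over all protein-coding genes the control and DHT shares were 13.6% and 4.96%, and 2.59% of all genes had both calls. The control share of the neighbours was thus near that of genes at large. Their DHT share was higher, but came to 5% with 3 and 5.61% with 10 neighbours on each side. This difference was not tested. The 100 neighbours were in none of the other lists. The 3 genes on either side of Cyp19a1 had no call, and the nearest called gene was Slc35f2, 4 genes away, in the control list alone. Fdx1 had a called gene at its side, Arhgap20, in the DHT list alone, and Ddx10, 4 genes away on the other side, in the control list alone. Each of these genes had a single call where Fdx1 had both.

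The called genes around the other 8 members were as follows. Star stood next to Ash2l and Kcnu1, both in the control list alone, with Ash2l encoding a subunit of the histone H3K4 methyltransferase complexes. Hsd3b1 had Tbx15, a T-box transcription factor, and Spag17 at 3 and 4 genes away on one side, each in both lists. On its other side lay 4 further Hsd3b genes, and none of the 7 matched Hsd3b genes was in any list. Srd5a1 had 3 called genes among its 10 neighbours, Adcy2 (an adenylyl cyclase) and Adamts16 in both lists and 1700001L19Rik in control alone. Hsd17b1 had Stat3 and Retreg3 in control alone. Around Cyp17a1 the list for DHT held Sufu, an inhibitor of Hedgehog signalling, and the list for control Nt5c2. Around Por they held Hip1 and Srrm3. Cyp11a1 and Scarb1 had 1 called neighbour each, Pml and Tmem132b, both after DHT alone. All of these genes but Slc35f2 and 1700001L19Rik were longer than the member beside them, with Adcy2 at 380 kb, Tmem132b at 260 kb and Spag17 at 258 kb the longest.

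**Figure D5:**
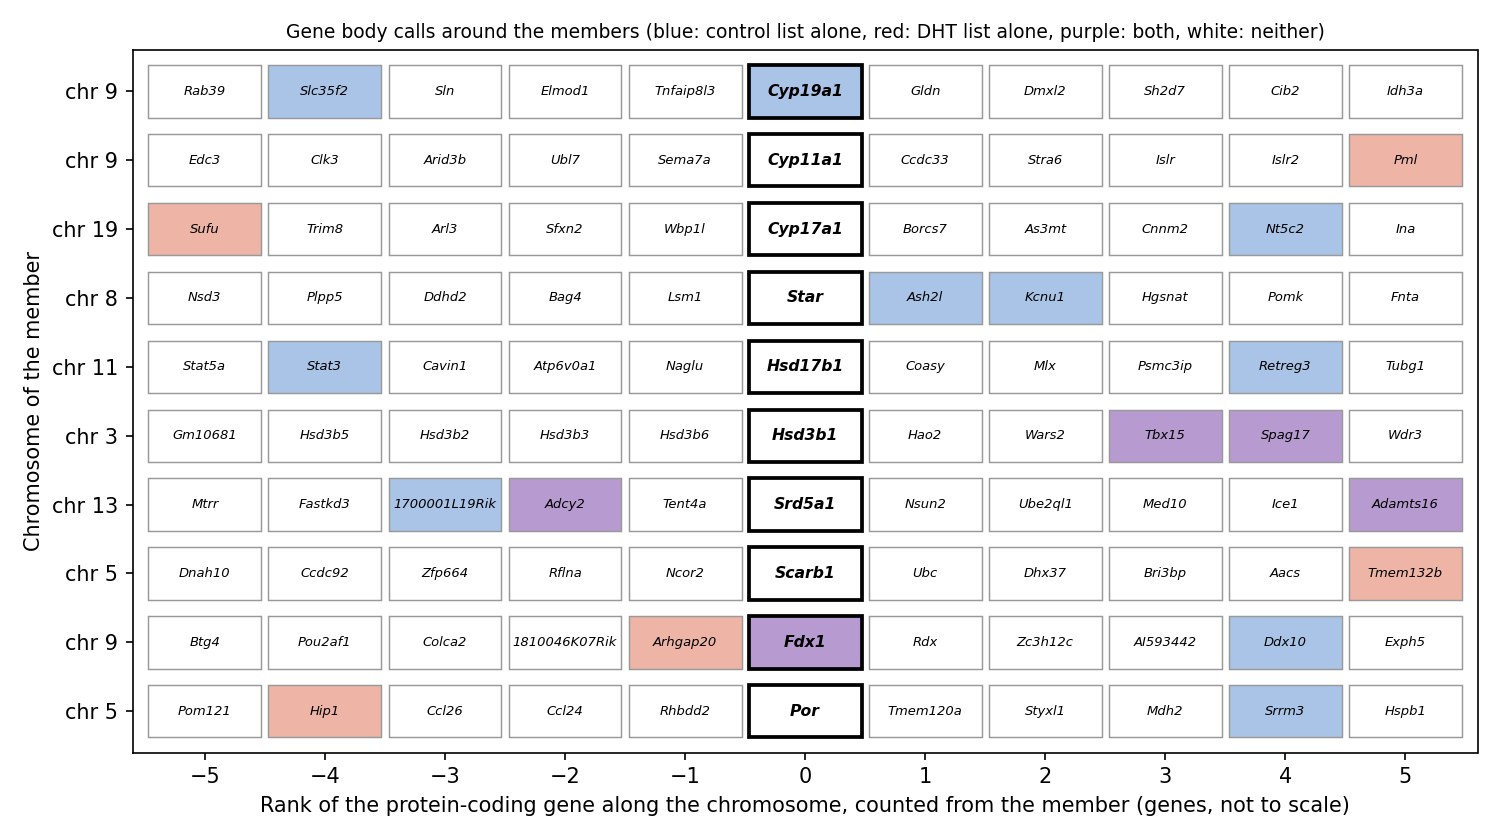
The 5 nearest protein-coding genes on each side of each member in gene order, not to scale, coloured by gene body call (blue control alone, red DHT alone, purple both, white neither). Cyp19a1 is the only blue box and Fdx1 the only purple box in the middle column, and 18 of the 100 neighbours are coloured.

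The wider pathway was described with 99 genes in 5 groups that were matched by symbol, 89 of them not among the members. Of the 89, 9 were in the control gene body list (10.1%, against 11.9% of all genes) and 5 in the DHT list (5.62%, against 4.36%), shares near those of all genes. In the promoter lists there were 0 of the 89, and the list of upregulated genes linked to an enhancer held 7 (7.87%, against 0.233%). Cholesterol uptake and transport, the group of Scarb1 and Star, had no gene body call among 15 genes. Its one listed gene was Abcg1, a transporter that exports cholesterol, in the upregulated enhancer list. The group of side chain cleavage and electron transfer had 8 genes, and Fdx1 was its single called gene. Its relatives Fdx2 and Fdxr (ferredoxin reductase, which feeds Fdx1) and the partner Cyp11a1 were in no list.

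The group of enzymes that convert steroids was the largest, with 34 genes, among them Cyp19a1, Hsd3b1, Cyp17a1, Hsd17b1 and Srd5a1. In it 7 genes had a control call (20.6%, against 13.6% of protein-coding genes) and 3 a DHT call (8.82%, against 4.96%). Beside Cyp19a1, the control list alone held Hsd17b4, Hsd17b12 and Hsd17b13, Akr1c14, an aldo-keto reductase of the family that acts on 3-ketosteroids, and Sult1e1, the estrogen sulfotransferase. Hsd17b2, which inactivates estradiol, and Hsd17b3, which makes testosterone in the testis, were in the DHT list alone. Hsd11b1, which regenerates active glucocorticoid, was in both. Of 11 Hsd17b genes 3 thus had a control call, 2 a DHT call and 6, Hsd17b1 among them, neither. The listed enzymes lay from 15.6 kb (Sult1e1) to 125 kb (Hsd17b12). Among 16 regulators, Creb1 and Crem, which encode transcription factors of the cAMP pathway, were in the control list alone, and Nr5a2, a nuclear receptor of GCs that is related to SF-1, was in the DHT list alone.

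Cholesterol synthesis, which supplies the substrate of the members, was, beside Abcg1, the source of the pathway genes in the list of upregulated genes linked to an enhancer. The list held 6 of 26 genes, or 23.1% of the group against 0.233% of all genes, and these were 9.09% of its 66 entries. No test of this count was run. These were Acat2, Mvd, Idi1, Fdps, Cyp51 and Tm7sf2, enzymes that lie along the way from acetyl-CoA to cholesterol. They lie on 6 chromosomes, and 0 of the 6 was in a gene body or promoter list. The 2 gene body calls of this group were other genes, Mvk in the DHT list alone and Insig2 in the control list alone. None of the 10 members was in this list, as is usual for 10 genes at that share. The list was built by the authors from expression changes and from a negative correlation of expression with the H3K27me3 level at linked enhancers. That rule, as the methods of the study give it, names no peak at the enhancer. All its genes were thus called upregulated, and it does not show what the enhancer link adds to that. The share of 0.233% is one of all genes, and the share among upregulated genes was not computed. The paper's gene ontology analysis already names cholesterol and lipid metabolism among the processes changed by DHT. The group was looked up with earlier results of these data known.

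On the chromosomes of the members the pools differed in the number of peaks in a like way. The 7 chromosomes held 5259 control and 1413 DHT peaks, and the DHT number was 26.9% of the control number compared with 24.3% over the genome. It ran from 20.1% on chromosome 3 (Hsd3b1) to 30.8% on chromosome 19 (Cyp17a1), with 30.2% on chromosomes 5 (Scarb1 and Por) and 11 (Hsd17b1), 28.6% on chromosome 8 (Star) and 25.7% on chromosome 13 (Srd5a1). These ratios rose under a q-value limit of 0.001, to 78.69% over the 7 chromosomes, and on chromosome 19 the direction turned, with 31 control and 33 DHT peaks (106.5%). On chromosome 9 control peaks had a median width of 419 bp and a median fold enrichment over the local background of 3.49, and DHT peaks 327 bp and 4.19. Fold enrichment was set against background within each pool, and the pools were not put on a common scale. Peaks inside and within 50 kb of a member were not analysed here, because the peaks are in mm9 and the annotation used is GRCm38.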

How the data were processed

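H3K27me3 ChIP-seq was done on 3 control and 3 DHT samples. The authors aligned reads to mm9 and called broad peaks with a q-value limit of 0.05. The submitters' processing notes name Bowtie2 2.3.4 and MACS2 2.1.1. The files hold 1 pooled list per group, and how samples were pooled is not given in the sources used here. For each peak the authors deposited a fold enrichment (a ratio over local background), a −log10 p-value, a −log10 q-value and a score. The deposited gene lists hold symbols without values. Those of up- and downregulated genes are the authors' own expression calls, used here for membership only. These calls came from RNA sequencing of 3 control and 3 DHT pools of GCs, which are not the samples described here. Enhancers were linked to genes by the authors through chromatin contact data from other data sets.

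Symbols were matched to RefSeq genes of GRCm38.p6. Of the entries of the 2 gene body lists, 8 (control) and 3 (DHT) did not match. GRCm38 gave names, lengths, gene order and promoter windows, and no peak was placed on it. In all, 60 control and 15 DHT peaks end past their GRCm38 chromosome. Genes with near-identical copies, such as the Hsd3b cluster, may share reads. Counts are described beside the share of all genes, and no test was run. The text names all members, every pathway gene in a list and every listed gene among 5 neighbours on each side. One gene of the pathway lists is not reported here and was left out of every pathway count. The members and lists were chosen with earlier results of these data known. The code for interval overlaps and for motif matches was tested on simulated intervals and sequences. The look-up of symbols in the lists was not tested in this way. Python 3.11.15, pandas 2.3.3, numpy 2.4.6 and matplotlib 3.10.9 were used.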

Additional observations from a re-analysis of the deposited data

How the results depend on the processing

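Of 37 alternatives to 16 results, 19 left the value within 1.5 times of a count or within the counting interval of a share, and 18 moved it. Without Cyp19a1, the control gene body list held 1 member. The share of all genes in the control list was 13.6% for protein-coding genes alone and 0.978%, 5.12%, 19.5% and 61.7% in the 4 length classes, and that in the DHT list 4.96%, 0.258%, 1.56%, 5.36% and 27.4%. By the shortest transcript of Cyp19a1, an alternative chosen after seeing the data, its class had shares of 5.12% and 1.56%. On the chromosomes of the members DHT peaks came to 47.3% of control peaks under a q-value limit of 0.01 and 78.7% under 0.001, against 26.9% under 0.05. The share of DHT peaks there that overlapped a control peak went from 17.6% to 10.8% with a reciprocal overlap of 50%, and to 14.8% and 14.2% at the stricter q-values. In these cases the cause was not tested. Older symbols changed no count of members, and 3 or 10 neighbours gave shares of 8.33% and 11.7% in control and 5% and 5.61% after DHT.

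No paired analysis was possible because each group is a single pooled list. For the same reason no fit leaves out a sample. Other windows and q-values for peaks near a member were not run, as no position of a member in mm9 was used here. Pooled lists without depth limit all of the above: an unlisted gene is one without a call, not one without the mark.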
